A study of Mus musculus with 48 samples.

Results

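The 10 genes described here are the immediate early genes Fos, Fosb, Jun, Junb, Egr1, Ier2, Ier3, Myc, Atf3 and Dusp1 of mouse embryonic stem cells (mESCs), followed through 4 h of cycloheximide (CHX) at 0.1 mg/ml. They were taken as the rows of the RNA-seq and Ribo-seq tables whose Ensembl identifiers carry these symbols, and all 10 were found among 55335 genes. RNA-seq measured the RNA of each gene in 28 libraries, and Ribo-seq the RNA fragments that ribosomes protect in 4, with 2 libraries per group. Nothing in the labels says that replicates are separate cultures, so p-values measure the spread between libraries, which may be technical.

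All cells were of a hybrid 129-C57BL/6 background and grew in serum, LIF and 2i, the last being inhibitors of the kinases GSK3 and MEK. In the CHX experiment, Nrde2-WT cells carried an intact conditional Nrde2 allele, and Nrde2-KO cells had received 4-hydroxytamoxifen (4OHT) at 100 nM for 4 d, which turns on a Cre recombinase that removes the floxed part of the gene. Ccdc174-WT cells expressed CCDC174 fused to the FKBP12F36V degron, and Ccdc174-dTAG cells were the same cells after dTAG-13 at 500 nM for 24 h, which leads to loss of the fusion protein. Each of these 4 cell conditions was measured without and with CHX, so the 4 CHX effects share no libraries, although they come from 2 cell lines. The labels do not say whether both lines were handled together. A first experiment without CHX held Nrde2-WT, Nrde2-KO, Nrde2d200 (NRDE2 without its first 200 amino acids) and Nrde2D174R (1 amino acid changed), and these 3 mutants share 1 pair of WT libraries. Mtrex-KO cells, after 100 nM 4OHT for 3 d, had WT libraries of their own. Ribo-seq held WT and Nrde2-KO cells. Nrde2-KO cells of the first experiment and of Ribo-seq had also received 100 nM 4OHT for 4 d.

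Immediate early genes are the first to be transcribed after a growth factor or stress signal, and their induction needs no newly made protein. FOS, FOSB, JUN and JUNB pair up as the AP-1 transcription factor, ATF3 pairs with JUN proteins, EGR1 and MYC are transcription factors, and DUSP1 is a phosphatase that inactivates MAP kinases. Their mRNAs are short-lived, in part through AU-rich elements in the 3' UTR, and CHX, which stops ribosomes during elongation, is known to raise many of them (superinduction). NRDE2 and CCDC174 are nuclear proteins studied for splicing of weak 5' splice sites, and MTREX is the helicase that feeds nuclear RNA to the exosome.

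In GENCODE release M21 of GRCm38, Fos spans chr12:85473890-85477273, Fosb chr7:19302696-19310051, Jun chr4:95049034-95052222, Junb chr8:84974484-84978718 and Ier2 chr8:84661331-84662852. Ier3 spans chr17:35821684-35822923, Myc chr15:61985391-61990374, Atf3 chr1:191170296-191218039 and Dusp1 chr17:26505590-26562128. Jun, Junb and Ier2 have no intron in the transcript used, as 2.55% of 13252 tested protein-coding genes with a 3' UTR do. Egr1 and Ier3 have 1 intron, Myc 2, and Fos, Fosb, Atf3 and Dusp1 have 3. The first 5' splice sites of 6 members with introns are shown, without that of Egr1, because the study concerns the use of this element. They give the last 3 bases of the exon and the first 6 of the intron, with the GT of the intron in capitals.
Fos intron 1: cagGTgagt
Fosb intron 1: cagGTaagt
Ier3 intron 1: gtgGTgagt
Myc intron 1: ccgGTaagc
Atf3 intron 1: gagGTgagt
Dusp1 intron 1: aagGTacgc
Of the 9 bases of the consensus CAGGTAAGT, the first site of Fosb matches 9, that of Fos 8, those of Myc and Atf3 7, and those of Ier3 and Dusp1 6. The later sites of Fos, Fosb, Myc, Atf3 and Dusp1 match between 6 and 8, with both later sites of Fosb at 6.

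The AU-rich pentamer ATTTA, searched on the sense strand with overlapping matches counted, occurs in the 3' UTR of 9 of the 10 genes. At least 1 is held by 68.9% of the 13252 genes, and the median gene holds 1. Ier3 has 5, Fos, Jun and Dusp1 have 4, Atf3 has 3, Junb, Egr1 and Myc have 2, Fosb has 1 and Ier2 has none. Per kb of 3' UTR, the density of Ier3 (8.16) is reached or passed by 1.55% of genes, that of Dusp1 (5.80) by 4.42% and that of Fos (4.91) by 6.6%. The longer motif TTATTTATT is present in Fos (1 match) and Dusp1 (2 matches), and in 7.84% of all these genes. The windows below are 30 bases of the 3' UTR of 4 members in which such a window holds 2 ATTTA. They are read 5' to 3' along the gene, with each ATTTA in capitals.
Fos, chr12:85477100-85477129, plus strand: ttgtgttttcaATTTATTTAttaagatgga
Jun, chr4:95049207-95049236, minus strand: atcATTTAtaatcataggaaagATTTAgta
Ier3, chr17:35822484-35822513, plus strand: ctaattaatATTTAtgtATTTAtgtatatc
Dusp1, chr17:26506157-26506186, minus strand: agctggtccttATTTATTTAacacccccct
Fos and Dusp1 hold the overlapping pair ATTTATTTA, and Jun and Ier3 hold separate pentamers. Of these 4, Fos and Jun were called higher with CHX in all 4 cell conditions, Dusp1 in 1 and Ier3 in none. Whether the motifs bear on these changes was not tested.

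Values are normalized CPM, the authors' depth-scaled read counts divided by 1 further factor per library, and reads in genes numbered between 28683644 and 36272309 per RNA-seq library. Nrde2 RNA, which checks the labels, was at 19.8 and 19.6 in Nrde2-KO without CHX against 53.3 and 51.9 in WT. With CHX it was at 257 and 249 in Nrde2-KO and at 242 and 224 in WT, so its total level does not separate these libraries. Of 745 genes called in Nrde2-KO of the first experiment, 347 were called the same way in Nrde2-KO with CHX (46.6%, and 49.3% of the 704 called there) and 2 the opposite way, in libraries not shared. Loss of the CCDC174 protein is not checked by its mRNA. Of 206 genes called in Ccdc174-dTAG without CHX, 45 were called the same way with CHX (21.8%, and 31.9% of the 141 called there) and none the opposite way. In the 16 libraries of the CHX experiment, the sum of 8 pluripotency markers was between 4483 and 5796 without and between 2890 and 3813 with CHX. In the same libraries, the sums without and with CHX were 5.39 to 12.9 and 10.1 to 19.1 for 9 fibroblast markers, 7.14 to 19.9 and 12.5 to 28.1 for 6 primitive endoderm markers, 64.0 to 113.2 and 56.8 to 93.3 for 7 trophectoderm markers, and 14.5 to 25.4 and 21.1 to 35.9 for 7 mesoderm and neuroectoderm markers. No marker was at 0 in all these libraries, and 6 of the 9 fibroblast markers stayed below 1. The part of these shifts in the results below was not tested. In bulk RNA, more expressing cells and more RNA per cell cannot be told apart.

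Fos, Jun, Junb and Atf3 were called higher with CHX in all 4 cell conditions, by 3.1-fold to 23.5-fold, while Ier3 and Myc were called in none. Egr1 was called in all 4 too, but it had few reads without CHX and passed the filter on low values through the treated libraries. A call means a Benjamini-Hochberg adjusted p below 0.01 in limma with a log2 fold change beyond 1. Of the 9 members tested, 5 were called higher in Nrde2-WT, where 11.2% of all tested genes were, 7 in Nrde2-KO (10.9%), 5 in Ccdc174-WT (12.6%) and 5 in Ccdc174-dTAG (11.9%). No member was called lower, against 2.91, 3.17, 2.61 and 2.68% of genes. Egr1 is part of these counts and of the medians that follow. Over the tested members the log2 fold change had a median of 1.94, 2.82, 2.39 and 1.65 in that order, and that of all tested genes lay between -0.01 and 0.03. With CPM as deposited, the median of all genes moved to between 0.20 and 0.24, and the share of called genes that were higher went from 77.4 to 88.1% in Nrde2-KO and from 81.6 to 92.2% in Ccdc174-dTAG.

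**Figure D1:**
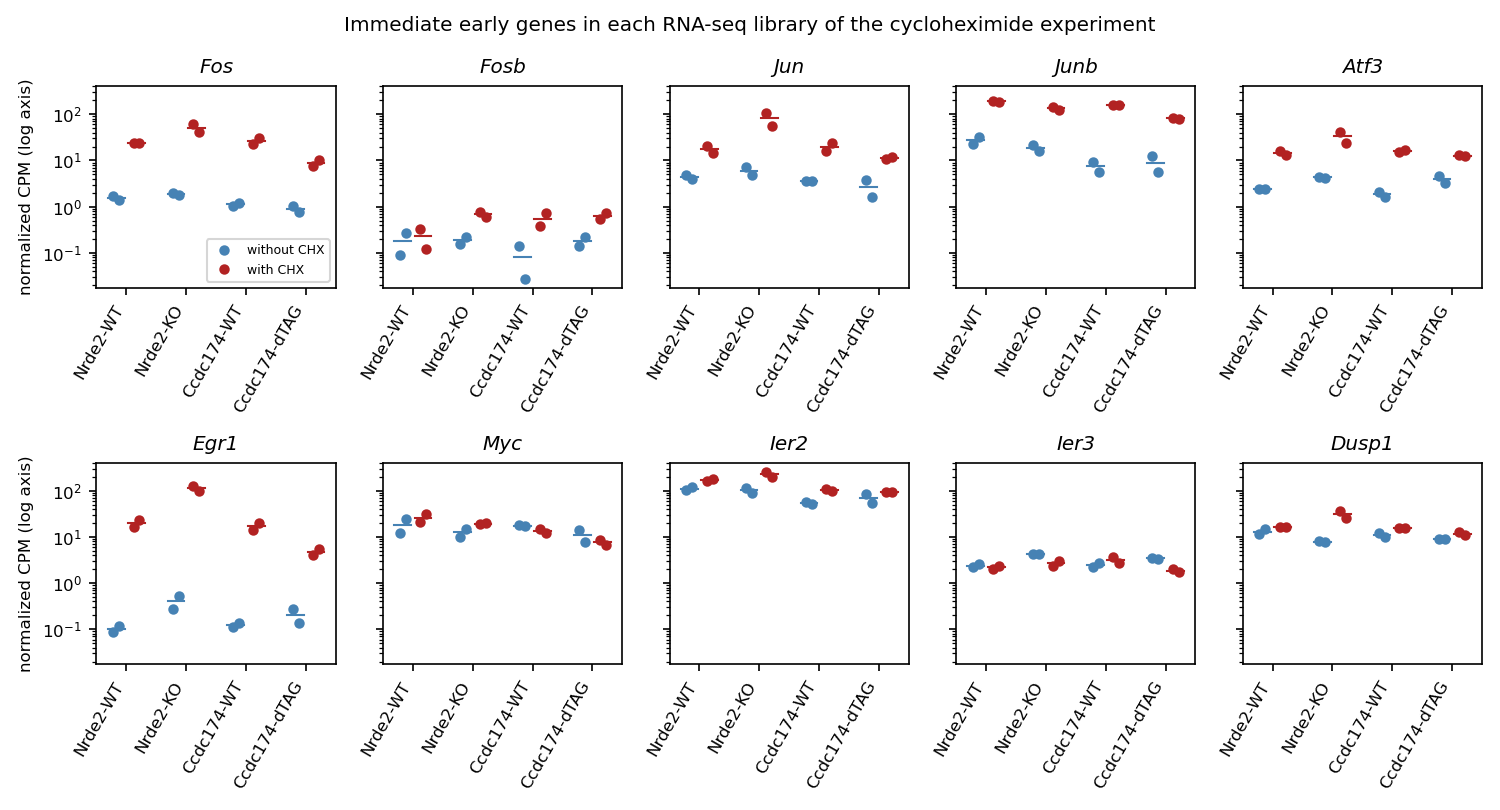
Level of each member in the 16 RNA-seq libraries of the CHX experiment, in normalized CPM on a log axis. Points are libraries and lines are means of 2; Fos, Jun, Junb, Atf3 and Egr1 lie higher with CHX (red) than without (blue) in every cell condition, while Myc and Ier3 overlap or lie close.

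Fos was at 1.66 and 1.41 normalized CPM without and 23.8 and 24.0 with CHX in Nrde2-WT, and at 1.99 and 1.83 without and 61.9 and 41.1 with CHX in Nrde2-KO. In Ccdc174-WT it was at 1.01 and 1.21 without and 23.03 and 29.9 with CHX, and in Ccdc174-dTAG at 1.05 and 0.761 without and 7.70 and 10.04 with CHX. Every treated library was above every untreated one, and the Nrde2-KO libraries were the highest and the Ccdc174-dTAG libraries the lowest of those treated. On the log2(normalized CPM + 0.25) scale used for all fold changes, Fos rose by 3.76 ± 0.20 (SE), 4.56 ± 0.20, 4.29 ± 0.20 and 2.98 ± 0.20 in Nrde2-WT, Nrde2-KO, Ccdc174-WT and Ccdc174-dTAG, with limma adjusted p between 4e-10 and 2e-08.

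Jun, the usual partner of FOS proteins, was at 4.84 and 3.86 without and 20.8 and 14.3 with CHX in Nrde2-WT, and at 7.14 and 4.87 without and 106.7 and 55.4 with CHX in Nrde2-KO. It was at 3.53 and 3.52 without and 16.2 and 23.7 with CHX in Ccdc174-WT, and at 3.796 and 1.58 without and 10.6 and 11.8 with CHX in Ccdc174-dTAG. Again no treated library overlapped an untreated one, and the Nrde2-KO libraries with CHX stood above all others. Jun rose by 1.94 ± 0.34, 3.65 ± 0.34, 2.39 ± 0.34 and 2.07 ± 0.34. Junb, the AP-1 subunit with the highest level here, went from 22.3 and 31.8 to 196.0 and 186.6 in Nrde2-WT, and from 22.0 and 15.7 to 144.7 and 122.1 in Nrde2-KO. It went from 9.17 and 5.72 to 161.7 and 159.7 in Ccdc174-WT, and from 12.3 and 5.62 to 80.9 and 80.8 in Ccdc174-dTAG. Both treated and untreated levels of Junb were lower in Ccdc174-WT than in Nrde2-WT, without overlap, and the rises were 2.83 ± 0.28, 2.82 ± 0.28, 4.42 ± 0.28 and 3.24 ± 0.28. The difference of the CHX effect on Junb between the WT of both lines was 1.59 ± 0.40 (adjusted p = 0.27), and no gene was called in that comparison (0 of 15133, with 1199 at an unadjusted p under 0.05, and 8 called by DESeq2). Overlapping genes on the other strand (Junos at Jun, Prdx2 at Junb) were kept apart by the strand-specific counting.

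Atf3, a factor also induced by stress signalling, went from 2.36 and 2.37 to 16.2 and 12.8 in Nrde2-WT and from 4.35 and 4.26 to 41.5 and 24.4 in Nrde2-KO. In Ccdc174-WT it went from 2.05 and 1.62 to 15.1 and 16.8, and in Ccdc174-dTAG from 4.68 and 3.23 to 12.8 and 12.6. Treated and untreated libraries did not overlap, and the untreated level was higher in the depleted cells of each line than in their WT. The rises were 2.49 ± 0.22, 2.82 ± 0.22, 2.96 ± 0.22 and 1.65 ± 0.22.

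Egr1, a zinc finger factor gene on chromosome 18 and a target of the ERK pathway, had the largest log2 fold changes of the tested members in each of the 4 cell conditions. It was at 0.0875 and 0.120 (7 reads in all) without and at 16.5 and 22.9 with CHX in Nrde2-WT, and at 0.279 and 0.525 (28 reads) without and at 126.7 and 98.0 with CHX in Nrde2-KO. It was at 0.109 and 0.137 (9 reads) without and at 14.2 and 19.7 with CHX in Ccdc174-WT, and at 0.277 and 0.136 (15 reads) without and at 4.07 and 5.56 with CHX in Ccdc174-dTAG. Untreated Egr1 was near the lower limit of detection everywhere, and treated levels were highest in Nrde2-KO and lowest in Ccdc174-dTAG. The ratio of treated to untreated reads, scaled by library, was 190 in Nrde2-WT (95% Clopper-Pearson interval 92.1 to 474), 275 in Nrde2-KO (190 to 413), 137 in Ccdc174-WT (72.2 to 301) and 23.4 in Ccdc174-dTAG (14.002 to 42.1), for counting error only. In limma the rises were 5.80 ± 0.25, 7.45 ± 0.25, 5.51 ± 0.25 and 3.47 ± 0.25. Egr1 passed the filter on low values only through the treated libraries, and its fold change depends on the added 0.25: it was 4.21 in Nrde2-WT with 1 added and 7.55 in edgeR.

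Fosb, the least abundant AP-1 member here, did not reach the limit of a mean of 0.5 CPM over the 16 libraries and was not tested there. Its reads, summed over both libraries of a group, went from 12 to 19 in Nrde2-WT (ratio 1.29, 0.593 to 2.91), from 13 to 55 in Nrde2-KO (3.58, 1.93 to 7.14), from 6 to 49 in Ccdc174-WT (6.63, 2.84 to 18.9) and from 13 to 55 in Ccdc174-dTAG (3.49, 1.88 to 6.96). These intervals cover counting error only, not the spread between libraries.

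Ier2, Dusp1, Ier3 and Myc changed little or in some cell conditions only. Ier2, a nuclear protein gene without introns, was the most abundant member without CHX, between 51.3 and 121 over the 8 untreated libraries and between 91.8 and 258 over the 8 treated ones. It was called in Nrde2-KO, from 116.8 and 88.7 to 258.5 and 196.1 (1.14 ± 0.18), and its changes in Nrde2-WT, Ccdc174-WT and Ccdc174-dTAG were 0.60 ± 0.18, 0.93 ± 0.18 and 0.43 ± 0.18, all upward and under the limit of 1. Without the untreated Nrde2-KO replicate 2 or the treated Nrde2-KO replicate 1 the change in Nrde2-KO was 0.95 and was not called. In Ccdc174-WT it was called at 1.01 without either the untreated replicate 1 or the treated replicate 2, and at 1.16 with CPM as deposited.

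Dusp1, whose product switches off the kinases that induce these genes, went from 8.01 and 7.60 to 37.0 and 26.2 in Nrde2-KO. In Nrde2-WT it was at 11.4 and 14.7 without and 16.8 and 16.4 with CHX, in Ccdc174-WT at 12.0 and 9.92 without and 15.5 and 15.9 with CHX, and in Ccdc174-dTAG at 9.09 and 8.88 without and 12.5 and 11.0 with CHX. The untreated level was lowest in Nrde2-KO and the treated level highest there. The rise in Nrde2-KO was 1.96 ± 0.15, and the changes in the others were 0.35 ± 0.15, 0.52 ± 0.15 and 0.38 ± 0.15, none called. Its annotated span includes other genes, of which those on the same strand (AC122252.4 and AC122252.1) could affect its count of reads.

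Myc was at 11.9 and 24.4 without and 20.9 and 30.9 with CHX in Nrde2-WT, and at 10.1 and 14.9 without and 18.9 and 19.6 with CHX in Nrde2-KO. In Ccdc174-WT it was at 18.2 and 17.1 without and 15.1 and 12.0 with CHX, and in Ccdc174-dTAG at 13.8 and 7.82 without and 8.75 and 6.57 with CHX. Treated and untreated libraries of Myc overlapped in Nrde2-WT and in Ccdc174-dTAG. The changes were 0.57 ± 0.31, 0.64 ± 0.31, -0.38 ± 0.31 and -0.44 ± 0.31 and none was called. Without the untreated Nrde2-WT replicate 2, the change in Nrde2-WT was 1.08 and was called. Ier3 stayed between 1.70 and 4.203 in all 16 libraries. Its changes were -0.12 ± 0.18, -0.61 ± 0.18, 0.33 ± 0.18 and -0.82 ± 0.18, with adjusted p of 0.0090 and 0.0011 in the depleted cells at a size under the limit of 1, and the first turned to 0.07 with CPM as deposited.

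**Figure D2:**
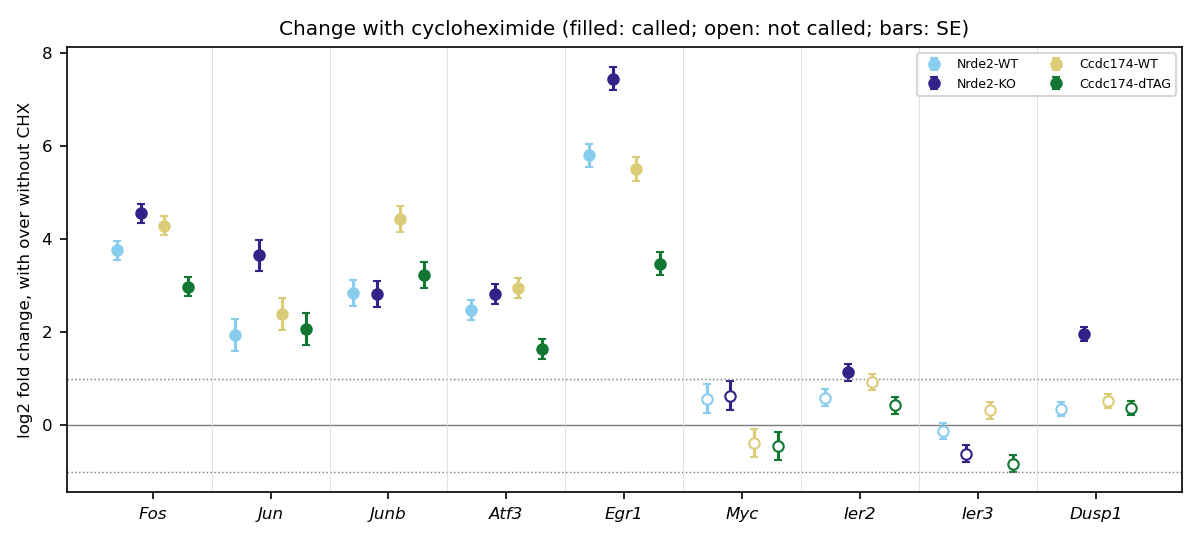
Log2 fold change with over without CHX for the 9 members tested, with SE bars, in Nrde2-WT, Nrde2-KO, Ccdc174-WT and Ccdc174-dTAG. Filled points were called and dotted lines mark log2 fold changes of -1 and 1; Egr1 spans 3.47 to 7.45 and Myc, Ier2 and Ier3 stay between -0.82 and 1.14.

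Per kb of exon, the order of the members changed with CHX. In Nrde2-WT without CHX, Ier2 (73.2 normalized CPM per kb) stood above Junb (11.7), Myc (6.68) and Dusp1 (3.94), and Fos (0.653), Fosb (0.0286) and Egr1 (0.0231) were the lowest. With CHX, Ier2 (110.6) and Junb (83.1) led, followed by Fos (10.1) and Myc (9.54), and Egr1 was at 4.39. In Ccdc174-WT with CHX, Junb (69.8) and Ier2 (67.9) were within the spread of their libraries of each other.

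In Nrde2-KO the CHX effect on Dusp1 was larger than in Nrde2-WT by 1.61 ± 0.22 on the log2 scale (95% interval 1.15 to 2.07, adjusted p = 0.0018). It was the only member among 16 genes called for a larger effect (0.106% of genes), and 10 genes were called for a smaller one (0.0661%). The differences for Jun (1.71 ± 0.48, adjusted p = 0.092), Egr1 (1.65 ± 0.35, adjusted p = 0.026) and Fos (0.80 ± 0.29, adjusted p = 0.20) were not called. The adjusted p of Dusp1 passed 0.01 without the untreated Nrde2-WT replicate 2 (0.0101), without the treated Nrde2-WT replicate 1 or 2 (0.0108 and 0.0117), without the treated Nrde2-KO replicate 1 (0.0128), with no filter (0.0104) and with only the compared groups (0.0136), over a range of 2.5e-09 to 0.0136 in all alternatives. The difference for Egr1 was 0.55 in edgeR and 0.50 in DESeq2, and 2.12 with 1 added.

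In Ccdc174-dTAG the CHX effect on all 9 tested members was below that in Ccdc174-WT, with a median difference of -1.15 against -0.01 for all genes, and no member was called by limma (0.0396% of genes were called larger and 0.033% smaller, 0.0727% in all). The differences were -2.03 ± 0.35 for Egr1 (adjusted p = 0.014), -1.31 ± 0.29 for Fos (adjusted p = 0.060), -1.31 ± 0.31 for Atf3 (adjusted p = 0.077) and -1.15 ± 0.26 for Ier3 (adjusted p = 0.065). That for Junb was -1.19 ± 0.40 (adjusted p = 0.27). Against WT, Atf3 in Ccdc174-dTAG was at 1.00 ± 0.20 without and -0.31 ± 0.20 with CHX. Ier3 was at 0.43 ± 0.26 and -0.72 ± 0.19, and Fos at -0.24 ± 0.24 and -1.55 ± 0.18. The difference for Atf3 thus lay mostly in a higher level without CHX. By limma, 1464 of the 15133 genes had an unadjusted p under 0.05 in this comparison. Egr1 was called with 1 added or with the replicate block, and Atf3 in DESeq2, and the adjusted p of Egr1 ranged from 0.0052 to 0.30 over the alternatives.

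With CHX present, Nrde2-KO and Ccdc174-dTAG cells departed from their WT in opposite directions for Egr1 and Fos. In Nrde2-KO, 4 of the 10 members were called higher (2.82% of genes) and none lower (1.73%). Egr1 was 2.50 ± 0.20 higher on the log2 scale, Jun 2.14 ± 0.27, Atf3 1.13 ± 0.20 and Fos 1.07 ± 0.18, with adjusted p of 7.5e-06, 0.00014, 0.0010 and 0.00092. Fosb, tested here, was at 0.762 and 0.598 in Nrde2-KO and 0.335 and 0.121 in WT (0.99 ± 0.29, not called). Dusp1 (0.90 ± 0.14) and Ier2 (0.42 ± 0.11) were also higher at adjusted p of 0.00043 and 0.0082, and Junb was lower by 0.52 on the log2 scale (-0.52 ± 0.07, adjusted p = 0.00019), all within the limit of 1. Without Nrde2-KO replicate 1, which was the higher library for each of these genes, Fos (0.78, adjusted p = 0.011) and Atf3 (0.75) were no longer called, and 2 members remained. Without Nrde2-WT replicate 2, Atf3 (0.96) was not called, without Nrde2-WT replicate 1, Fosb (1.32) was, and without Nrde2-KO replicate 2, Dusp1 (1.15) was. With no filter on low values, Fos and Atf3 had adjusted p of 0.017 and 0.018 and were not called. The sum of the pluripotency markers was 3183 to 3209 in Nrde2-KO and 3784 to 3813 in WT, that of the primitive endoderm markers 23.2 to 28.1 and 13.6 to 16.1, of the fibroblast markers 17.4 to 19.1 and 10.1 to 15.4, of the mesoderm and neuroectoderm markers 21.4 to 24.3 and 32.1 to 35.9, and of the trophectoderm markers 64.7 to 75.7 and 81.3 to 93.3. Their part in these changes was not tested.

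In Ccdc174-dTAG with CHX, Egr1 fell by 1.76 and Fos fell by 1.55 on the log2 scale (SE 0.20 and 0.18, adjusted p = 0.00028 and 0.00034), and no other member was called (0.704% of genes were called lower and 0.207% higher, 0.911% in all). Junb was at -0.99 ± 0.07 (adjusted p = 1.3e-05), just inside the limit, Myc at -0.81 ± 0.18, Jun at -0.79 ± 0.27 and Ier3 at -0.72 ± 0.19. Egr1 and Fos stayed called without any 1 of the 4 libraries. With no filter on low values their adjusted p was 0.012 and 0.014, and neither was called, while over the other settings with all libraries it lay below 0.01. In Ccdc174-dTAG and Ccdc174-WT with CHX, the marker sums were 2890 to 2983 and 3076 to 3185 for pluripotency, 21.1 and 30.0 to 32.0 for mesoderm and neuroectoderm, and 56.8 to 59.3 and 69.5 to 71.9 for trophectoderm, and the fibroblast and primitive endoderm sums lay between 10.8 and 14.2 in all 4 libraries. The part of these shifts in the result was not tested.

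The difference between these 2 effects, Ccdc174-dTAG against WT minus Nrde2-KO against WT, was tested in the 8 treated libraries, a comparison added after the values were seen. All 10 members had a difference below 0, and 5 were called lower (1.32% of genes) and none higher (0.304%, with 1.63% in either direction). Egr1 differed by -4.26 ± 0.28, Jun by -2.93 ± 0.38, Fos by -2.62 ± 0.26, Atf3 by -1.45 ± 0.28 and Dusp1 by -1.31 ± 0.19. Atf3 lost its call without any 1 of the 4 Ccdc174 libraries, Nrde2-WT replicate 2 or Nrde2-KO replicate 1 (adjusted p between 0.0135 and 0.0236), and with no filter on low values no member was called. These cells differ in line and in the agent given as well as in the protein lost, which cannot be told apart.

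**Figure D3:**
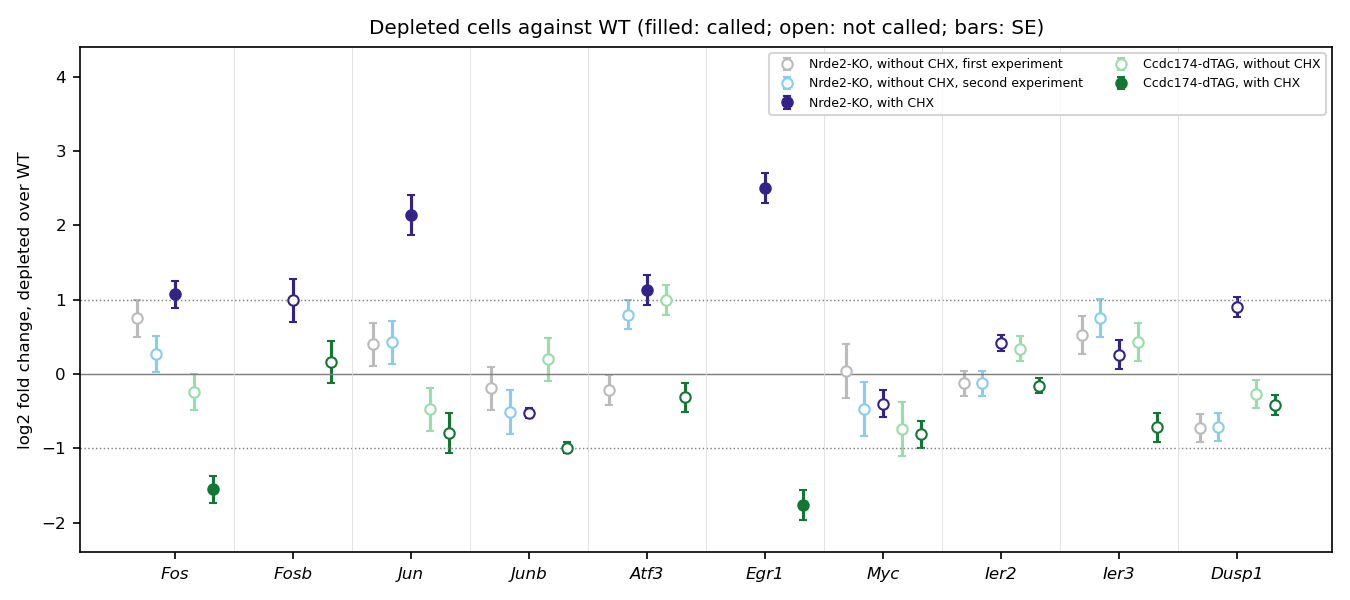
Log2 fold change of depleted cells over their WT with SE bars, for Nrde2-KO without CHX in both experiments and with CHX, and for Ccdc174-dTAG without and with CHX. Filled points were called and lie only among the points with CHX, where others are open. Egr1 with CHX was at 2.50 in Nrde2-KO and -1.76 in Ccdc174-dTAG, and untested members have no point.

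Without CHX, no member was called in Nrde2-KO of either experiment, in Nrde2d200, in Nrde2D174R or in Ccdc174-dTAG, of 8 members tested in each by limma. The shares of genes called higher and lower were 3.02 and 1.98% in Nrde2-KO of the first experiment, 2.4 and 2.42% in the second (4.82% in all), 1.58 and 1.07% (2.65%) in Nrde2d200, 0.154 and 0.0604% in Nrde2D174R and 0.228 and 1.16% (1.38%) in Ccdc174-dTAG. At an unadjusted p under 0.05 there were between 2623 and 6172 of 14889 genes in these comparisons. Egr1 and Fosb were too low to test. Dusp1 was below WT in both Nrde2-KO experiments: it was at 11.4 and 8.07 against 18.5 and 13.9 in WT in the first (-0.72 ± 0.19, adjusted p = 0.0074), and -0.71 ± 0.19 in the second (adjusted p = 0.0079), within the limit of 1. Fos was at 1.39 and 1.79 in Nrde2-KO and 1.12 and 0.620 in WT in the first experiment (0.75 ± 0.24, adjusted p = 0.027). Atf3 was at 0.80 ± 0.20 in the second experiment (adjusted p = 0.0056) and at -0.21 ± 0.20 in the first, and Ier3 at 0.75 ± 0.26 (adjusted p = 0.036) and 0.52 ± 0.26, none called. In Ccdc174-dTAG, Atf3 was at 4.68 and 3.23 against 2.05 and 1.62, and its change of 1.00 ± 0.20 (adjusted p = 0.0028) was at the limit: it was called in edgeR (1.09) and DESeq2 (1.10), with 0.1 added (1.05), with CPM as deposited (1.01), without the WT replicate 1 (1.15) and without the Ccdc174-dTAG replicate 2 (1.25).

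Myc levels lay apart between the experiments. Over the first Nrde2 experiment it was between 2.14 and 4.44, and over the untreated libraries of the CHX experiment between 7.82 and 24.4. Whether culture or library preparation differed between these experiments was not tested.

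Mtrex-KO was the group without CHX in which members were called. Fos, Jun, Atf3, Dusp1 and Junb, 5 of 8 tested, were higher, where 15.8% of all tested genes were called higher and 10.9% lower (26.7% in all). Fos was at 12.5 and 18.3 in Mtrex-KO and 0.870 and 0.680 in WT, Jun at 81.2 and 48.0 against 4.73 and 4.64, and Atf3 at 47.4 and 38.2 against 3.97 and 6.26. The knockout and WT libraries lay far apart for these 3 genes, whose changes were 3.91 ± 0.24, 3.67 ± 0.29 and 3.03 ± 0.20. Dusp1 was at 90.0 and 74.0 against 25.5 and 23.2 (1.74 ± 0.19), and Junb at 41.1 and 32.0 against 13.9 and 12.7 (1.43 ± 0.29). Egr1 had 173 reads in Mtrex-KO and 9 in WT, a scaled ratio of 24.0 (12.3 to 53.3), and Fosb 60 and 11 (6.80, 3.54 to 14.3). Both intervals cover counting error only, not the spread between libraries. Fosb was at 1.53 and 0.552 in the Mtrex-KO libraries and at 0.245 and 0.0566 in WT. Ier2 did not separate the groups, at 80.2 and 83.7 against 82.7 and 79.95. Myc, at 10.6 and 11.0 against 4.84 and 8.89, changed by 0.70 ± 0.36 and was not called. Ier3, at 1.14 and 2.59 against 3.40 and 3.14, was at -0.82 ± 0.26 (adjusted p = 0.0099), and it was called at -1.34 without Mtrex-KO replicate 2 and at -1.15 with CPM as deposited.

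Mtrex RNA itself was at 46.2 and 41.3 in Mtrex-KO and 118.3 and 111.1 in WT. The scaling matters in this comparison, since the median of all genes moved to -0.38 with CPM as deposited and to -0.15 with TMM factors, and the share of called genes that were higher went from 59.3 to 34.1 and 48.9%. The 5 members stayed called under both. The sum of the 7 trophectoderm markers was 486 to 505 in Mtrex-KO and 85.4 to 119.9 in WT, with Krt18 (254 ± 21.4 against 17.6 ± 7.18, SD, n = 2) and Krt8 (186 ± 1.68 against 42.6 ± 17.2) the highest. The sums in Mtrex-KO and WT were 4470 to 5443 and 5987 to 6254 for pluripotency, 4.80 to 5.10 and 15.97 to 16.04 for fibroblast, 19.2 to 19.98 and 11.3 to 12.1 for primitive endoderm, and 16.02 to 17.5 and 16.7 to 19.3 for mesoderm and neuroectoderm markers. The part of these shifts in the changes of the members was not tested.

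**Figure D4:**
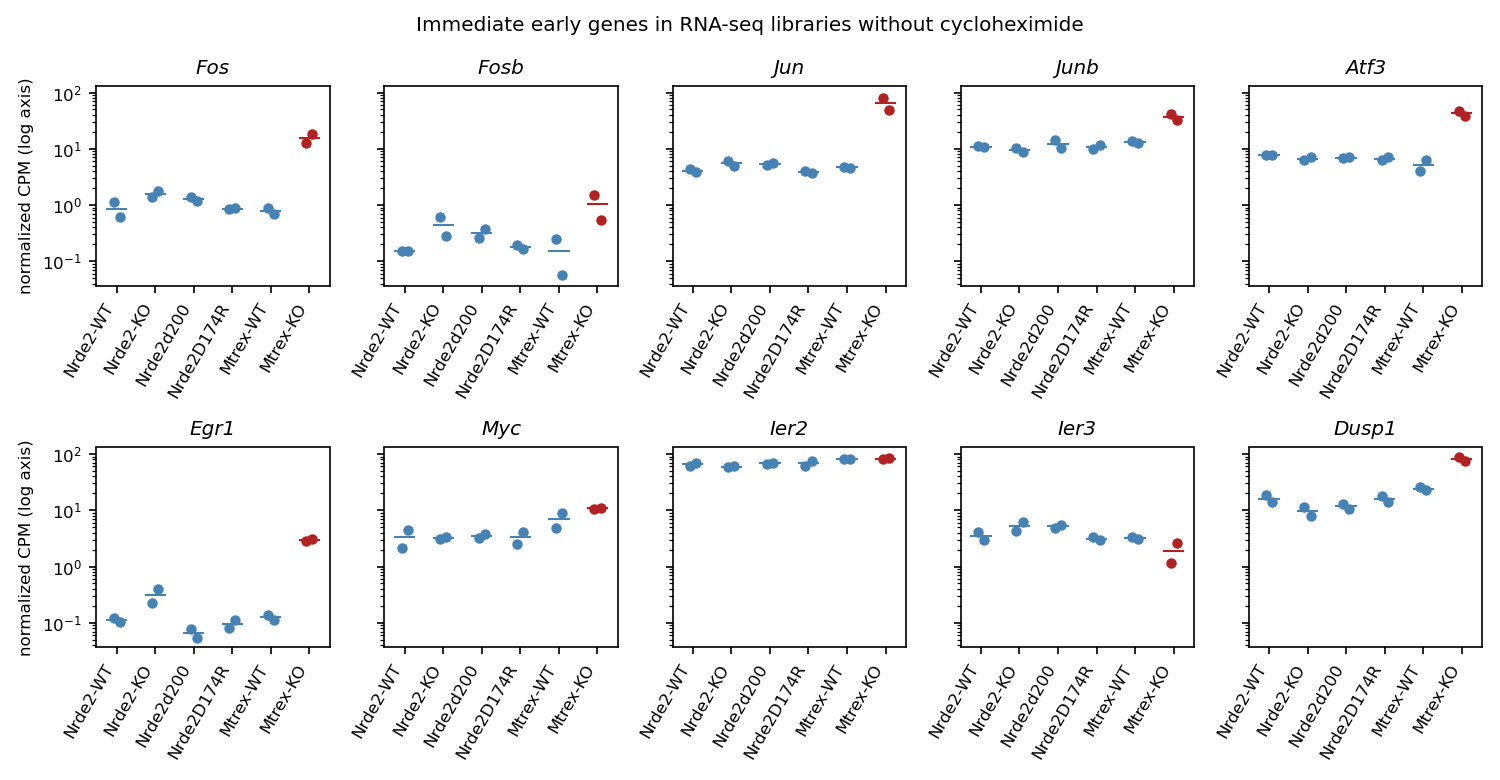
Level of each member in the libraries without CHX of the first Nrde2 experiment and of the Mtrex experiment, in normalized CPM on a log axis, with points for libraries and lines for means of 2. Both Mtrex-KO libraries (red) stand above all others for Fos, Jun, Junb, Atf3, Egr1, Dusp1 and Myc, with Fos at 12.5 and 18.3, and overlap other libraries for Fosb and Ier2.

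In Ribo-seq, with between 3475051 and 5035940 reads in genes per library, most members rested on few reads. Myc was the member called in Nrde2-KO (2.8% of genes were called lower and 3.62% higher), at 5.01 and 6.61 normalized CPM (28 and 51 reads) against 14.2 and 13.6 in WT (109 and 102 reads). It fell by 1.23 on the log2 scale (SE 0.19, adjusted p = 2.9e-05). In RNA-seq of the first experiment Myc did not separate the genotypes, at 3.09 and 3.32 against 2.14 and 4.44. The labels do not say whether Ribo-seq and RNA-seq used the same cultures, so assay and culture cannot be told apart in a comparison between them. The Ribo-seq effect minus the RNA-seq effect was -1.27 ± 0.39 (adjusted p = 0.044) and was not called (0.279% of genes were called lower and 0.898% higher). It was called at -1.76 without Nrde2-WT replicate 2 of the RNA-seq, and was -0.77 (adjusted p = 0.22) with RNA-seq of the second experiment, an alternative added after the values were seen. Over all alternatives its adjusted p ranged from 0.0078 to 0.22. Fos had 4 and 3 reads in WT and 6 and 9 in Nrde2-KO (0.95 ± 0.48), and Junb changed by -0.40 ± 0.18, neither called. Per kb of coding sequence, Ier2 (69.2) led in WT, followed by Ier3 (14.9), Junb (12.2), Myc (10.5) and Dusp1 (10.1), and Egr1 (0.165) was the lowest. With CPM as deposited the median of all genes was 0.15, and the share of called genes that were higher went from 56.4 to 75.5%, and from 76.3 to 90.5% for the difference between assays.

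Of 58 other immediate early genes, 51 were tested, and their median change was 0.42, 0.50, 0.49 and 0.20 in the order used above. Of these, 18, 19, 18 and 14 were called higher in Nrde2-WT, Nrde2-KO, Ccdc174-WT and Ccdc174-dTAG (35.3, 37.3, 35.3 and 27.5%) and 6, 3, 6 and 7 lower. In all 4 cell conditions, 13 were called higher and 2 lower, against 7.17 and 1.31% of all tested genes. Gadd45g, which encodes a stress-induced growth arrest protein, rose by 6.10, 5.08, 6.02 and 4.64 on the log2 scale. Id2 (4.55, 4.92, 3.78 and 4.06), Id3 (3.58, 3.56, 3.29 and 3.58) and Id1 (2.72, 3.95, 3.15 and 3.72), whose proteins bind and block basic helix-loop-helix factors, followed. The 2 called lower, named after their values were seen, were the nuclear receptor gene Nr4a1 (-1.87, -1.87, -1.77 and -2.09) and the kinase gene Plk3 (-1.54, -1.07, -1.49 and -1.48). The smallest mean changes were those of Pim1 (0.48, 0.17, 0.18 and -0.51) and Trib1 (-0.06, -0.10, -0.14 and -0.01). In Mtrex-KO, 23 of 49 tested were called higher and 3 lower (46.9 and 6.12%, against 15.8 and 10.9% of all genes), Gadd45g (2.85), Id2 (3.95), Id3 (2.32) and Id1 (1.52) among the former. In Nrde2-KO with CHX 5 were called higher and 1 lower (9.8 and 1.96%, against 2.82 and 1.73%), and in Ccdc174-dTAG with CHX 3 lower (5.88%, against 0.704%) and none higher.

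Of 43 tested kinases and transcription factors that act upstream of immediate early genes, 1, 1, 1 and 0 were called in either direction (10.9 to 12.6% of all tested genes were called higher and 2.61 to 3.17% lower), and the median change lay between -0.15 and -0.10. The 3 calls, named after their values were seen, were Mknk2 in Nrde2-WT (-1.03), Egfr in Nrde2-KO (1.01) and Stat3 in Ccdc174-WT (1.02). Mapk8, which encodes the JUN kinase JNK1, had a mean change near 0 (0.23, -0.01, 0.07 and -0.09). Of 36 tested partners in the AP-1, CREB and MYC families, 6, 6, 6 and 5 were called higher (16.7, 16.7, 16.7 and 13.9%, near the 10.9 to 12.6% of all genes) and 1, 3, 3 and 2 lower. Cebpd (2.79, 1.65, 3.10 and 2.25), Ddit3 (1.89, 1.97, 2.66 and 2.14), which encodes CHOP, and Mxd1 (1.27, 1.23, 1.201 and 1.15), a MAX partner, rose in all 4, and Bach1 (-1.40, -1.41, -1.58 and -1.78), a repressor that pairs with small MAF proteins, fell. Creb3l1 (-0.65, 0.16, 0.20 and 0.17) and Cebpg (-0.23, -0.10, -0.01 and 0.12) had the smallest mean changes.

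Of 42 factors that bind AU-rich elements or remove poly(A) tails and caps, 1, 2, 2 and 2 were called higher and 5, 3, 4 and 5 lower (7.14 to 11.9%, where 2.61 to 3.17% of all genes were called lower and 10.9 to 12.6% higher), with medians between -0.30 and -0.08. Zc3h12a (-2.91, -2.64, -2.52 and -2.08), an endonuclease that cuts mRNAs of inflammatory genes, and Rc3h1 (-1.58, -1.69, -1.64 and -1.80), which encodes Roquin-1, an mRNA decay factor, fell in all 4. The decapping factor gene Dcp1b rose (1.65, 1.98, 2.29 and 2.58), and Cnot10 (0.02, 0.09, 0.04 and 0.07) and Lsm1 (0.07, -0.06, -0.04 and -0.21) had the smallest mean changes. Of 19 genes of the integrated stress response beside Atf3, 4, 1, 6 and 1 were called higher (5.26 to 31.6%) and 2, 2, 2 and 3 lower (10.5 to 15.8%), against the same shares of all genes. Ddit3, which is on this list too, rose in all 4 and Herpud1 (-1.27, -1.48, -1.47 and -2.04), an endoplasmic reticulum stress gene, fell, while Cth (0.21, -0.05, 0.01 and -0.13) and Vldlr (0.31, 0.10, 0.20 and -0.75) had the smallest mean changes. In Ccdc174-dTAG against WT without CHX, 6 of these 19 genes were called higher (31.6%, against 0.228% of all genes) and 0 lower (against 1.16%). Their median change there was 0.70, and that of all genes 0.02. Whether this bears on their CHX effects was not tested.

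**Figure D5:**
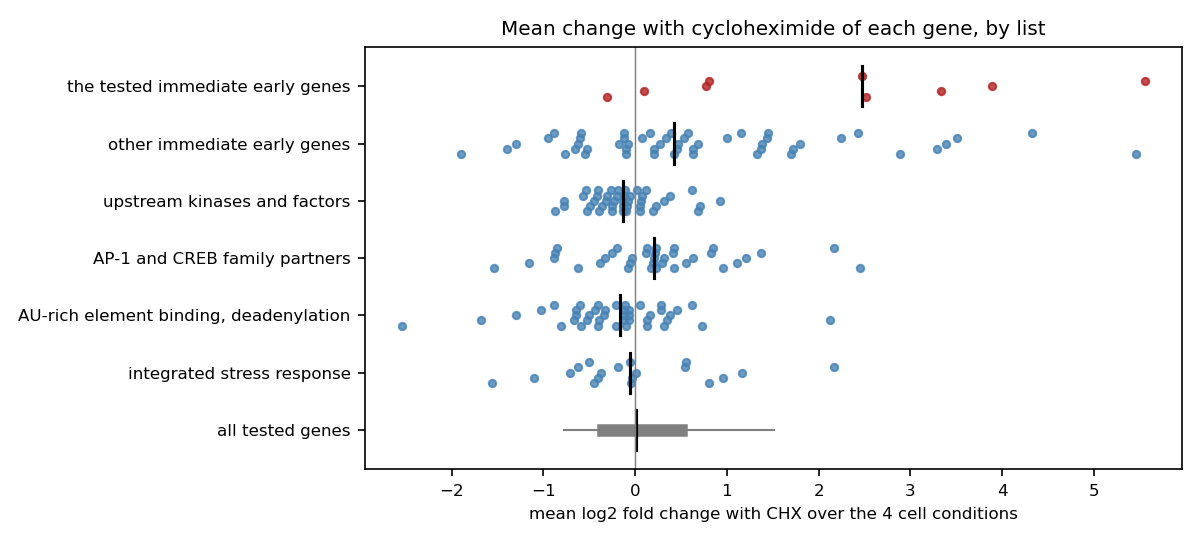
Mean log2 fold change with CHX over the 4 cell conditions for each tested gene of 6 lists, with a black line at each list's median. For all 15133 tested genes the thick bar spans the middle 50% and the thin bar the 5th to 95th percentile; the median of the tested members lies furthest right, and the upstream kinases and factors lie around 0.

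The genes whose pattern over the 16 libraries was most like the mean profile of the 9 tested members were sought among 1278 genes called the same way in all 4 cell conditions. They were Nr2f2 (Pearson r = 0.97), Zfpm2 (0.96), Pcdh8 (0.96), Stra6l (0.95) and Sp5 (0.94), a description over libraries that share the CHX contrast. Their log2 fold changes with CHX were lowest in Ccdc174-dTAG, with Nr2f2 at 2.11, 2.52, 1.99 and 1.35 and Sp5 at 2.89, 3.35, 2.89 and 1.23. These genes were chosen for likeness to the members over the same libraries, so this order follows in part from the choice and is no separate finding. Each member is part of that mean profile, and among them r ran from -0.13 (Ier3) and 0.46 (Myc) to 0.95 (Egr1, Jun and Fos).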

How the data were processed

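The authors aligned RNA-seq reads to mm10 with STAR 2.7.3a, used featureCounts to count unique, strand-matched reads in GENCODE genes, and deposited CPM that carry no scaling between libraries. Ribo-seq CPM were made alike after trimming and collapsing duplicates. All deposited values were within 0.1 of whole reads (100%), which were recovered.

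CPM were divided by median-of-ratios factors, 0.25 was added and log2 taken. limma 3.58.1 (R 4.3.3) was fitted with trend and empirical Bayes to genes whose mean reached 0.5 CPM: 16 libraries of the CHX experiment (15133 genes), 20 libraries without CHX (14889), 8 with CHX (15476), 4 of Ribo-seq (13857), and 8 for Ribo-seq against RNA-seq (14700). The study's thresholds made a call: a log2 fold change beyond 1 in either direction together with p under 0.01 after Benjamini-Hochberg adjustment. edgeR 4.0.16 and DESeq2 1.42.0 on recovered reads were alternatives, with other pseudocounts, filters, scalings, a replicate block, only the compared groups, and each library left out. Egr1, Fos and Fosb reads were compared with 95% Clopper-Pearson intervals.

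Names and sequences came from GENCODE M21 of GRCm38 (55154 identifiers named, 181 not). All members are named. From each list, the 4 largest mean changes among genes called the same way in all 4 cell conditions and the 2 smallest are named, apart from 1 gene that is not reported here. The members and lists were chosen with earlier results of these data known.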

Additional observations from a re-analysis of the deposited data

Results flagged for a closer look

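Differences between 2 effects that were called are given as values. The CHX effect on Dusp1 differed between Nrde2-KO and Nrde2-WT by 1.61 on the log2 scale. With CHX, the effect in Ccdc174-dTAG minus that in Nrde2-KO was -4.26 for Egr1, -2.93 for Jun, -2.62 for Fos, -1.45 for Atf3 and -1.31 for Dusp1. This second comparison was added after the values were seen, and with no filter on low values it called no member. Cell line and agent differ in it along with the protein lost. Groups of 2 libraries are too small for a search for outlying libraries.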

How the results depend on the processing

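The number of members called with CHX, Egr1 included, was 5, 7, 5 and 5 in Nrde2-WT, Nrde2-KO, Ccdc174-WT and Ccdc174-dTAG, and 5 to 6, 6 to 7, 5 to 6 and 5 with 1 library left out. In Mtrex-KO it was 5, and 5 to 6 with 1 library left out. The difference of the CHX effect between Nrde2-KO and WT was called for 1 member, for 2 with 1 added before log2, for 0 with no filter or with only the compared groups, and for 0 to 1 with 1 library left out. That between Ccdc174-dTAG and WT was called for 0 members, and for 1 with 1 added, with the replicate block and in DESeq2. Ccdc174-dTAG without CHX had 0 members called, 1 with 0.1 added, with CPM as deposited, in edgeR and in DESeq2, and 0 to 1 with 1 library left out. With CHX, 4 members called in Nrde2-KO became 2 with no filter and 2 to 5 with 1 library left out, 2 in Ccdc174-dTAG became 0 with no filter, and 5 in the difference between both became 0 with no filter and 4 to 5 with 1 library left out. The Ribo-seq effect minus the RNA-seq effect was called for 0 members, and for 0 to 1 with 1 library left out. The CHX effect on Ier3 in Nrde2-WT turned from -0.12 to 0.0687 with CPM as deposited. The cause of these changes was not tested. With no filter, more genes entered both the limma fit and the adjustment, and their parts were not separated.

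Replicate numbers are only 1 and 2 and the labels do not say that they mark a shared batch, so the libraries were not treated as paired. Deviations of same-numbered libraries were compared within each experiment, with both lines of the CHX experiment kept apart. They correlated at 0.1194 to 0.3737 in the CHX experiment, a hint of shared variation from the data. The correlations were -0.03339 to 0.4222 in the libraries without CHX and -0.02556 in Ribo-seq. A replicate block called Egr1 in the difference between Ccdc174-dTAG and Ccdc174-WT (-2.03, limma adjusted p = 0.0052) and changed no other count of members. It moved the count of all genes from 26 to 65 for the difference between Nrde2-KO and WT, from 11 to 18 for that between Ccdc174-dTAG and WT, from 32 to 78 in Nrde2D174R and from 252 to 462 for the difference between both depletions with CHX.

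Counts over all genes fell with 1 added before log2: the CHX effects went from 2131, 2122, 2308 and 2200 to 1341, 1386, 1467 and 1390, Nrde2-KO from 745 to 397, from 718 to 474 and with CHX from 704 to 396, Nrde2d200 from 394 to 217, and Ccdc174-dTAG from 206 to 136 and with CHX from 141 to 64. With no filter, Ribo-seq went from 890 to 561 (562 in DESeq2), its difference from RNA-seq from 173 to 0, Nrde2d200 to 256, Nrde2D174R to 5 and the difference between both depletions with CHX to 5. Leaving out 1 library moved the count of called genes from 26 to as low as 5 for the difference of the CHX effect between Nrde2-KO and WT and from 252 to as low as 55 for the difference between both depletions with CHX (each without the treated Nrde2-KO replicate 1). It moved the count from 11 to between 3 and 18 for the difference between Ccdc174-dTAG and WT, from 32 to between 0 and 6 in Nrde2D174R with any 1 of the 4 libraries compared left out, from 394 to as low as 138 in Nrde2d200 (without its replicate 2) and from 745 to as low as 488 in Nrde2-KO (without its replicate 1). It moved Ccdc174-dTAG from 206 to as low as 116 and with CHX from 141 to as low as 83 (each without its replicate 2), and the Ribo-seq difference from 173 to as low as 77 (without the Ribo-seq WT replicate 1), so the shares of called genes printed for these comparisons depend on single libraries. Depth limits Fosb, at 1 to 24 reads, and Egr1, at 2 to 19 reads, per library without CHX outside Mtrex-KO, and Fos, Fosb, Egr1 and Atf3 in Ribo-seq.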
